A study of Mus musculus with 2 samples.

Results

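Mitochondrial ribosomal protein genes encode the protein subunits of the ribosome that works inside mitochondria. They were taken here as every gene whose probe sets carry a single platform gene symbol beginning with Mrpl or Mrps and a number. The rule found 74 genes among the 12393 named on the array, 47 of the large subunit by name (Mrpl) and 27 of the small subunit (Mrps). Their values come from pancreatic islets isolated with collagenase P from mice at 2 days after birth, with 1 Affymetrix mouse 430A array for PERK wild-type mice and 1 for PERK knockout mice. PERK, encoded by Eif2ak3, is an endoplasmic reticulum kinase that slows translation by phosphorylating eIF2 alpha. Per the labels, the wild-type mice were of mixed strain and of both sexes, and the knockout label gives neither strain nor sex. The knockout allele, the cells it acts in and any pooling of pups are not stated in the sources used here.

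The mitochondrial ribosome translates the few proteins encoded by mitochondrial DNA, all of them core parts of the respiratory chain and ATP synthase. Its RNAs are transcribed inside the organelle, while every one of its proteins is encoded in the nucleus, made on cytosolic ribosomes and imported. Some subunits descend from bacterial ribosomal proteins and others are specific to mitochondria. Beta cells depend on the respiratory chain because ATP from glucose oxidation closes the potassium channels that gate insulin release.

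The promoters of these genes are shown first, because they can be read for motifs of known regulators of mitochondrial biogenesis, whose own transcripts are described further on. RefSeq windows (GRCm38.p6) from 250 bases before to 50 after a gene's start were matched for 65 of the 74 genes. Mrpl4, Mrpl13, Mrpl15, Mrpl19, Mrpl38, Mrpl54, Mrps28, Mrps34 and Mrps35 had no matched window. Each window was searched on both strands for CCGGAAG, the core bound by GABPA and other ETS factors, for AAGATGGC, a YY1 motif, for GCATGCGC, a core of the NRF1 palindrome, and for TGATGNAA, the composite element bound by ATF4, the factor translated when PERK is active. Below are the windows of the 2 lowest and 2 highest members in log2 ratio that had 1 window holding a GABPA, YY1 or NRF1 motif. Capitals mark matches to those 3 motifs, on either strand. The window of Mrpl17 is chr7:105811038-105811337 on the minus strand, that of Mrps18b chr17:35916391-35916690 on the minus strand, that of Mrps18c chr5:100798509-100798808 on the plus strand and that of Mrpl52 chr14:54426659-54426958 on the plus strand.
Mrpl17: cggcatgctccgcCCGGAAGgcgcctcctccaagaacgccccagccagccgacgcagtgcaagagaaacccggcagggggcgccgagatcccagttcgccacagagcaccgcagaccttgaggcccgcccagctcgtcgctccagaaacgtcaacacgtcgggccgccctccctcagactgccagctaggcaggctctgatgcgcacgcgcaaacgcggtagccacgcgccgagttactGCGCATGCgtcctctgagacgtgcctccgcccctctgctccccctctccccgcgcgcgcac
Mrps18b: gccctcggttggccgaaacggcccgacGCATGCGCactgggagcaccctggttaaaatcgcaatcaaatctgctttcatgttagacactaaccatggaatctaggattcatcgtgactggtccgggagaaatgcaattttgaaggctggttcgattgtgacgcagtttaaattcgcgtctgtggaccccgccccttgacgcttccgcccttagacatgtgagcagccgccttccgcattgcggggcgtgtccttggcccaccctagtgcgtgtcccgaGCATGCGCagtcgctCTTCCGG
Mrps18c: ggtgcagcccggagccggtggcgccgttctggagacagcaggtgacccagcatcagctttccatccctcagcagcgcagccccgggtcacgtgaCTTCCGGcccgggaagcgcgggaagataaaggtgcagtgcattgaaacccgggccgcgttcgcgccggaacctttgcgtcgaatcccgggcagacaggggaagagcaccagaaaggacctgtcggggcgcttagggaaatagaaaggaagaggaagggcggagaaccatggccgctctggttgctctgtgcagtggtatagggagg
Mrpl52: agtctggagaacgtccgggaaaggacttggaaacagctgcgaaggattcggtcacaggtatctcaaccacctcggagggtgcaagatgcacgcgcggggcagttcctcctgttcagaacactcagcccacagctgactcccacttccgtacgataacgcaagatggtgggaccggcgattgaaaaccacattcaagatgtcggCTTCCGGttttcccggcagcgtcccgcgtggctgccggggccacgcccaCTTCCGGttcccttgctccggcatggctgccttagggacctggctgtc

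All 4 printed windows hold the GABPA core, in the window of Mrpl17 close to its upstream end. The windows of Mrpl17 and Mrps18b also hold the NRF1 core, and those of Mrps18c and Mrpl52 do not. These 4 windows were chosen by their ratios, so they do not stand for all genes with that core. Over the 65 genes with a window, 24 (36.9%) held CCGGAAG, against 12.9% of 17491 protein-coding genes and 8.86% of all 32851 windows of the same length. AAGATGGC was found for 11 genes (16.9%), against 3.57% of protein-coding genes and 2.75% of all windows, and GCATGCGC for 8 (12.3%), against 3.93% and 2.71%. The ATF4 element was found in the window of 0 of 65 genes, against 4.13% of protein-coding genes and 3.97% of all windows. A match is a description of the letters, and a window without one says nothing of the factor. The motif split was not a split in signal: the log2 ratio of knockout over wild type had a median of -0.01 for the 24 genes with CCGGAAG and -0.01 for the genes without it. It was -0.02 with and 0.00 without AAGATGGC, and 0.03 with and -0.01 without GCATGCGC.

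Facts of the whole series bear on every value. Each gene was represented by its probe set of highest mean signal, once the arrays shared a 2% trimmed mean, and a gene was called measured where that probe set was above a floor of 39.8 on both arrays. Of the 12393 genes, 8133 were measured, and their log2 ratios of knockout over wild type had a median of 0.03. The targeted gene, Eif2ak3, had signals of 117.7 (wild type) and 58.7 (knockout). The 8 islet endocrine markers on the array, among them Ins2, Gcg and Sst, were measured in both libraries, and so were the 9 exocrine (acinar) markers on the array. With 1 array per genotype there is no replicate error and no p-value, so genes are counted by size. The error given is the disagreement of the 2 brightest probe sets of a gene, 0.26 (SD per probe set, log2, n = 2597 genes). Both are read on the same 2 arrays. This SD covers differences between probe sets. It does not cover array, RNA preparation, animal or litter effects that both probe sets share.

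Mitochondrial ribosomal protein transcripts had nearly the same signals in both libraries. All 74 genes were measured, with signals of 72.2 to 753.5 (median 279.9) on the wild-type array and 81.0 to 746.8 (median 291.8) on the knockout array. The median log2 ratio was -0.01, the mean -0.01 and the SD over genes 0.21, from -0.51 for Mrpl54 to 0.54 for Mrpl20. Summed over the 74 genes, the knockout signal was 99.1% of the wild-type signal. In a bulk sample, fewer cells of a type and less RNA per cell cannot be told apart.

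**Figure D1:**
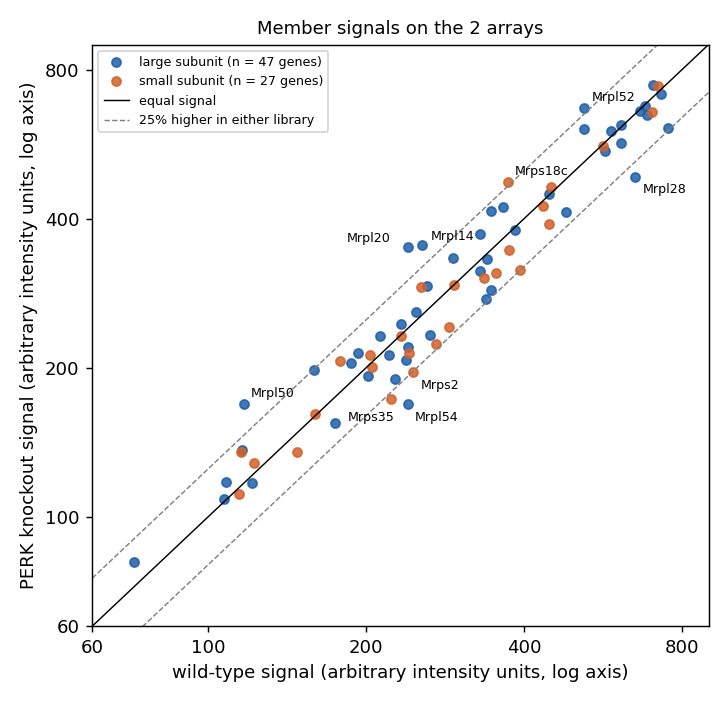
Signal of each of the 74 genes on the wild-type array (x axis) and the PERK knockout array (y axis), in arbitrary intensity units on log axes, 1 array each. Blue points are large subunit genes and orange points small subunit genes. The solid line marks equal signal, the dashed lines a signal 25% higher in either library, and the 9 genes beyond them are named.

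No member was 1.5-fold apart in either direction, against 4.19% of all measured genes 1.5-fold higher and 2.95% lower. At 2-fold, where 0.516% of all measured genes were higher and 0.652% lower, the member count was again 0. A signal at least 25% above that of the other library was found for 5 members (6.76%) on the knockout array, where 16.5% of all measured genes were, and for 4 (5.41%) on the wild-type array, where 10.9% were. Both shares of members are below those of all genes. With each array centred on its median instead, the split became 3 higher and 8 lower, where 13.2% of all measured genes were higher and 13.4% lower. Above equality were 33 of 74 members (44.6%), against 54.9% of all measured genes. The interquartile range of the members spanned 0.27 on the log2 scale (-0.14 to 0.13) and that of all measured genes 0.38. Among the 5790 measured genes whose mean signal lay between the lowest and highest member's, it spanned 0.37. A ratio within 1 probe set SD of equality was found for 57 members (77.0%), against 63.1% of all measured genes.

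Among the members higher on the knockout array, 4 of the 5 past the 25% limit belong to the large subunit, which holds 47 of the 74 members. These were 8.51% of the large and 3.70% of the small subunit genes, against 16.5% of all measured genes. Mrpl20, the homologue of the bacterial L20 protein that binds ribosomal RNA early in assembly, had signals of 240.5 (wild type) and 350.6 (knockout), 1.46-fold higher. Mrpl50, a mitochondria-specific subunit, had 116.9 and 168.9, 1.44-fold higher. For Mrpl14, the protein to which the assembly factor MALSU1 binds, they were 255.8 and 353.6, 1.38-fold higher. The log2 ratios of Mrpl20 (0.54) and Mrpl50 (0.53) were the only member ratios beyond 2 probe set SDs (0.514), with Mrpl54 (-0.511) just inside. Within that limit were 97.3% of members, against 89.7% of all measured genes. Mrpl52, also specific to mitochondria, had 521.2 and 669.2, 1.28-fold higher. The small subunit gene in this group was Mrps18c, which encodes the mitochondrial S18 protein, with 372.3 and 473.8, 1.27-fold higher. Mrpl1, the L1 homologue, lay just under the limit with 159.3 and 198.2 (1.24-fold). The next 2 were Mrpl35 (345.7 and 415.2) and Mrpl19 (115.8 and 136.4), at 1.20-fold and 1.18-fold.

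Past the 25% limit in the other direction were 4 members, 2 of each subunit. These were 4.26% of the large and 7.41% of the small subunit genes, against 10.9% of all measured genes. Mrpl54, a mitochondria-specific subunit, had signals of 240.2 (wild type) and 168.6 (knockout), 1.42-fold lower. Mrpl28, the homologue of bacterial L28, had 652.3 and 486.6, 1.34-fold lower. Mrps35, a small subunit protein without a bacterial counterpart, had 222.8 and 172.5, 1.29-fold lower. Mrps2, the S2 homologue, mutated in a human combined respiratory chain deficiency, had 245.8 and 195.6 and was just past the limit at 1.26-fold lower. Mrps28 fell just short of it with 392.8 and 315.4 (log2 ratio -0.32). Mrpl17 (753.5 and 611.3), Mrpl16 (338.2 and 275.4) and Mrps18b (271.9 and 223.6) followed, with log2 ratios of -0.30, -0.30 and -0.28. The 6 members with the highest mean signal were Mrps33, Mrpl41, Mrpl27, Mrpl17, Mrps34 and Mrpl57. Mrps33 had 720.6 and 741.5, Mrpl41 705.9 and 746.8, and Mrpl27 730.7 and 715.4. Mrps34 had 701.8 and 657.8 and Mrpl57 680.7 and 675.0. Of these 6, Mrpl17 alone was outside the range of -0.09 (Mrps34) to 0.08 (Mrpl41).

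**Figure D2:**
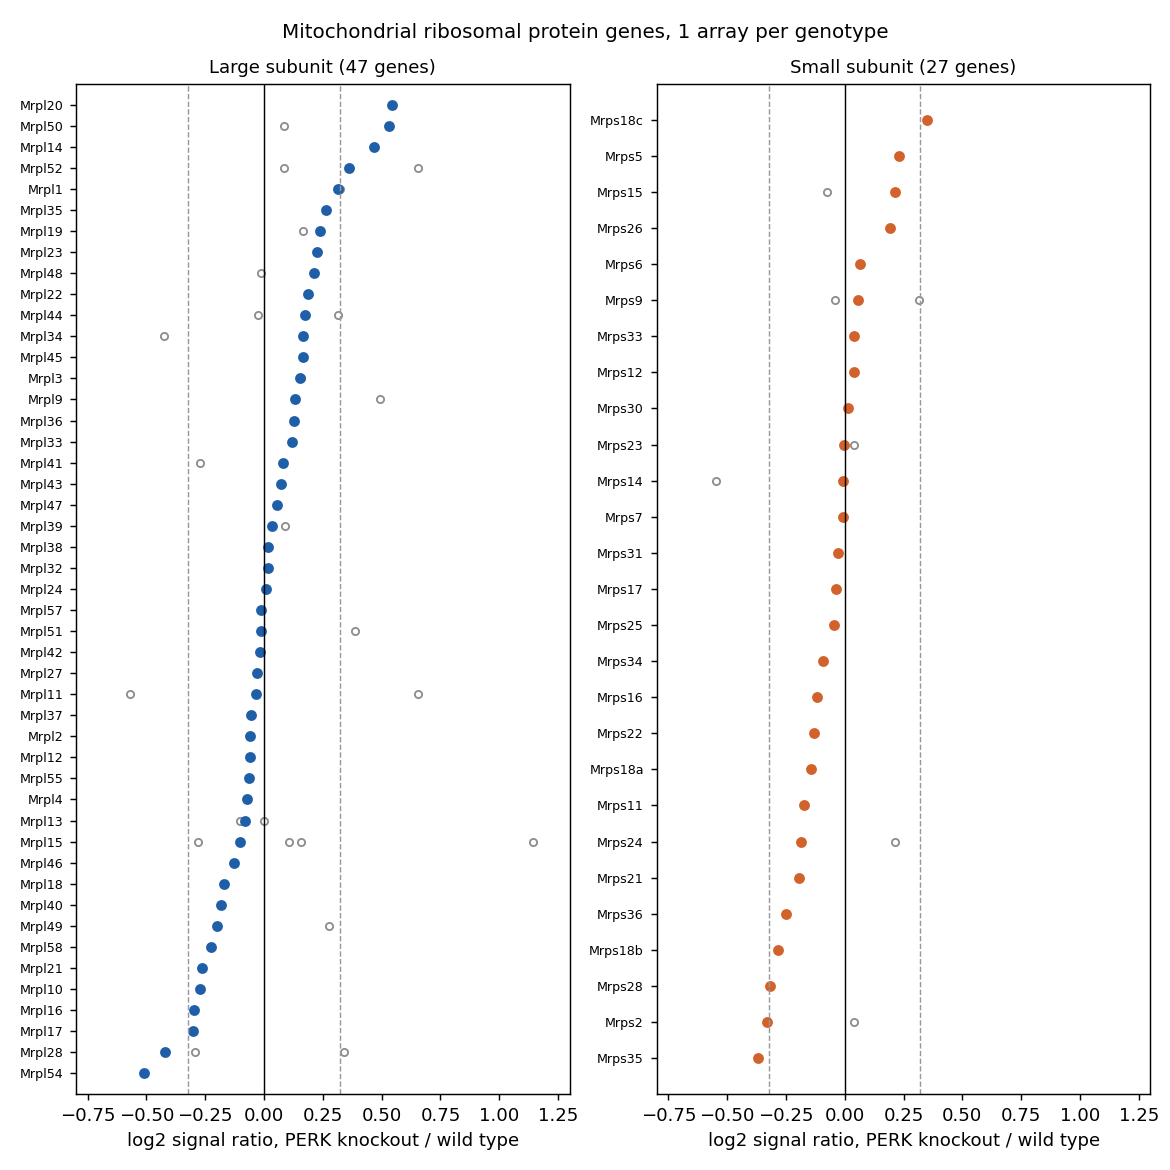
Log2 ratio of PERK knockout over wild type for the 47 large subunit genes (left, blue) and the 27 small subunit genes (right, orange), each sorted by ratio. Filled points are the brightest probe set, open grey points other measured probe sets of the same gene, and dashed lines mark a signal 25% higher in either library. Most filled points lie between the dashed lines, and the widest spread of open points is that of Mrpl15.

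The 2 subunits overlapped over most of their range. The 47 large subunit genes had a median log2 ratio of 0.01 (SD 0.23, from -0.51 to 0.54), with 24 above and 23 below equality. The 27 small subunit genes had a median of -0.04 (SD 0.18, from -0.37 to 0.35), with 9 above and 18 below, where 45.1% of all measured genes were below. The summed signal on the knockout array was 100.4% of the wild type for the large subunit and 96.4% for the small one. The medians differed by 0.05. The probe set SD of 0.26 and the SDs within the subunits describe single genes, not a median over 47 or 27 genes. The error of these medians was not estimated, and no test is possible with these 2 arrays. The names do not follow structure throughout: Mrps30 and Mrps18a encode proteins that sit in the large subunit. Their log2 ratios were 0.01 and -0.14. Mrps36, at -0.25, is now regarded as a component of the oxoglutarate dehydrogenase complex. It was kept with the small subunit in all counts, also where subunits were taken by structure.

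By evolutionary origin the members overlapped as well. The 46 genes classed as having a bacterial homologue had a median log2 ratio of -0.02 and the 28 classed as mitochondria-specific -0.01, with 21 and 12 above equality. These counts depend on the assignment of classes, in which Mrpl55 (-0.06) was placed with the homologues. Both classes held genes at each end: Mrpl20 and Mrpl28 have bacterial homologues, and Mrpl50 and Mrpl54 do not. Within the large subunit the medians were 0.01 for 29 homologues and 0.00 for 18 specific genes, and within the small subunit -0.04 for 17 and -0.04 for 10.

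By place in the ribosome, single genes are given as examples, chosen with their values known, and no place is described as a whole. In the stalk, which recruits translation factors, Mrpl10 had a log2 ratio of -0.27, Mrpl12 -0.06 and Mrpl11 -0.04. MRPL12 protein is also known to bind the mitochondrial RNA polymerase. Around the peptidyl transferase centre, Mrpl16 had -0.30, Mrpl2 -0.06, Mrpl27 -0.03 and Mrpl3 0.15. At the polypeptide exit, where nascent chains meet the inner membrane, Mrpl23 had 0.22, Mrpl22 0.19, Mrpl45 0.17, Mrpl47 0.06, Mrpl24 0.01 and Mrpl17 -0.30. In the central protuberance, Mrpl40 had -0.18 and Mrpl48 0.21, the lowest and highest of 5 genes listed there.

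In the small subunit, examples from the head were Mrps7 (-0.01), Mrps9 (0.06), Mrps14 (-0.01) and Mrps24 (-0.19). Examples from the body and platform were Mrps21 (-0.19) and Mrps18c (0.35), the lowest and highest of 9 genes listed there. Mrps12, whose protein lies at the decoding site, went from 451.2 to 463.1. Mrpl58, a large subunit protein that can release peptides from stalled ribosomes, had 481.2 and 412.1, a log2 ratio of -0.22. Mrpl44, an RNase III-like subunit whose human gene is mutated in infantile cardiomyopathy, had 329.8 and 372.5 (0.18). Mrps16 and Mrps22, whose human genes are also mutated in respiratory chain deficiencies, had -0.12 and -0.13.

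Second probe sets showed how much of these ratios rests on the probe set. The 74 genes had 127 probe sets, of which 106 were measured, 20 were at the floor on both arrays and 1 was above it on the knockout array only. A second measured probe set was present for 23 genes, 41 genes had 1 probe set, and 10 had others that were not measured on both arrays. In the 23 genes, the next brightest probe set gave the same sign for 10 and the other sign for 13, and the SD per probe set was 0.26, equal to that of all genes. Over all 106 measured probe sets, 53 were above equality and the median log2 ratio was 0.00.

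**Figure D3:**
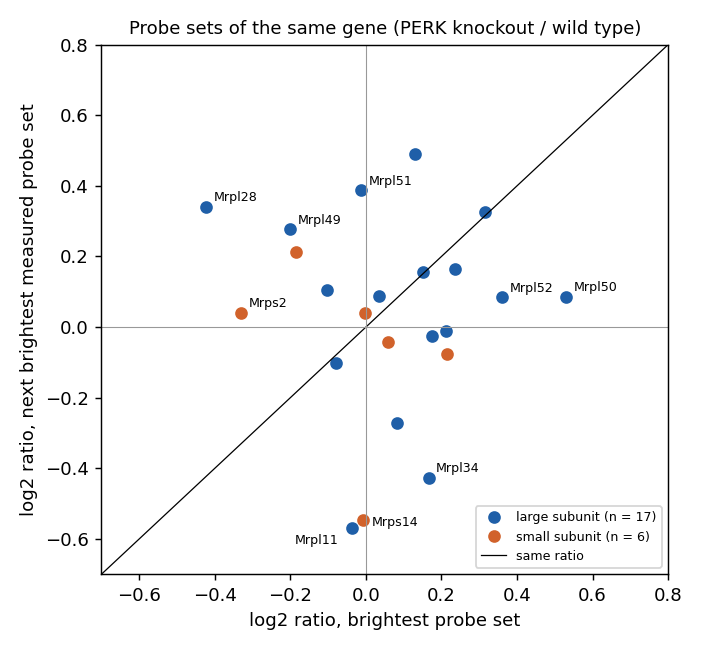
Log2 ratio of PERK knockout over wild type on the brightest probe set (x axis) against the next brightest measured probe set (y axis) for the 23 genes that have both, with the diagonal marking the same ratio. Mrpl28 lies at -0.42 and 0.34, and 13 of the 23 points lie in the quadrants of opposite sign.

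Of the 9 members past the 25% limit, 4 had a second measured probe set, which had the same sign for 2 and was again past the limit in the same direction for 0. That of Mrpl28 was past it in the opposite direction. For Mrpl28, the brightest gave -0.42 and the next 0.34 (328.1 and 415.5), both being of a type (_x_at) whose probes can match other sequences. Its plain probe set, the dimmest, had -0.30 (279.3 and 227.6). Mrpl50 had 0.09 on its second probe set (61.8 and 65.6), Mrps2 0.04 (97.1 and 99.9) and Mrpl52 0.08, with 0.65 on yet another (168.5 and 265.1). Mrpl20, Mrpl14, Mrps18c, Mrpl54 and Mrps35 have 1 probe set each.

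Mrpl15 and Mrpl11 had the widest disagreement. For Mrpl15, the brightest probe set had 611.9 and 569.4 (-0.10) and 4 others were measured, from -0.28 to 1.15, the highest at 117.1 and 259.0. For Mrpl11, the brightest had 340.4 and 332.0 (-0.04), and the 2 others measured had -0.57 and 0.65. Mrps14 (565.4 and 562.6, then 108.4 and 74.2) and Mrpl34 (261.2 and 293.1, then 85.9 and 63.9) also differed by over 0.5 between probe sets. Mrpl1 and Mrpl3, by contrast, gave 0.32 on both of 2 measured probe sets and 0.15 and 0.16.

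Other genes of mitochondrial translation are described by list. Subunits that carry other names were all measured where the array has them: Dap3 had a log2 ratio of -0.07, Chchd1 -0.08, Ptcd3 -0.08 and Gadd45gip1 -0.17. The 16 measured genes of ribosome assembly and rRNA modification had a median of 0.02. Past 1.5-fold were 0 of them, where 4.19% of all measured genes were higher and 2.95% lower. The brightest, Dhx30 and Ngrn, had 0.19 and -0.31. The 9 measured mitochondrial tRNA synthetases and amidotransferase subunits, among them Rars2 (523.6 and 456.3) and Fars2 (281.7 and 233.9), had a median of -0.13. Here too 0 were past 1.5-fold, against the same shares of all measured genes. Tars2 was above the floor in the knockout only and Gatb at the floor on both.

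Translation factors had an SD over genes of 0.33, the same as all measured genes (0.33). It was 0.18 for the assembly list and 0.23 for the synthetase list. The 9 measured had a median of 0.04, with 1 past 1.5-fold, where 4.19% of all measured genes were higher and 2.95% lower. That gene was Oxa1l, the insertase that receives nascent chains at the inner membrane. Oxa1l had 118.6 and 179.3, 1.51-fold higher, and 0.25 on its second probe set. Lrpprc, which stabilises mitochondrial mRNAs with Slirp, had 0.40 (290.7 and 383.5), and Slirp -0.02. The elongation factor gene Tufm had -0.46 (124.3 and 90.2), the lowest of this list, while both of its other probe sets lay under the floor.

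Genes that maintain and transcribe mitochondrial DNA had a median of 0.24 over 10 measured. Of these, 6 were above equality, as were 54.9% of all measured genes. Past 1.5-fold were 0, where 4.19% of all measured genes were higher and 2.95% lower. Pnpt1, a mitochondrial RNA-processing enzyme, had 0.55 (41.3 and 60.4, close to the floor) and the transcription elongation factor Tefm 0.48 (97.9 and 137.0). The brightest were Ssbp1 and Tfam. Ssbp1, which binds single-stranded mitochondrial DNA, had 0.27 (643.8 and 774.6), with -0.01 and 0.40 on its other probe sets. Tfam, which packages mitochondrial DNA, had -0.17 (336.1 and 297.9). For the RNA polymerase gene Polrmt, the brightest probe set gave -0.22 and another gave 0.24. Of the regulators whose motifs were searched above, Yy1 had 0.14 (436.9 and 479.8), Gabpa 0.14 (132.8 and 146.7) and Nrf1 -0.32 (62.5 and 50.0). A second probe set of Nrf1, close to the floor, gave -0.33 (52.9 and 42.2), and another was at the floor on both arrays. The coactivator genes Ppargc1a and Ppargc1b were at the floor on both arrays. Esrra, a nuclear receptor of mitochondrial genes, had 0.51 (86.5 and 123.5).

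**Figure D4:**
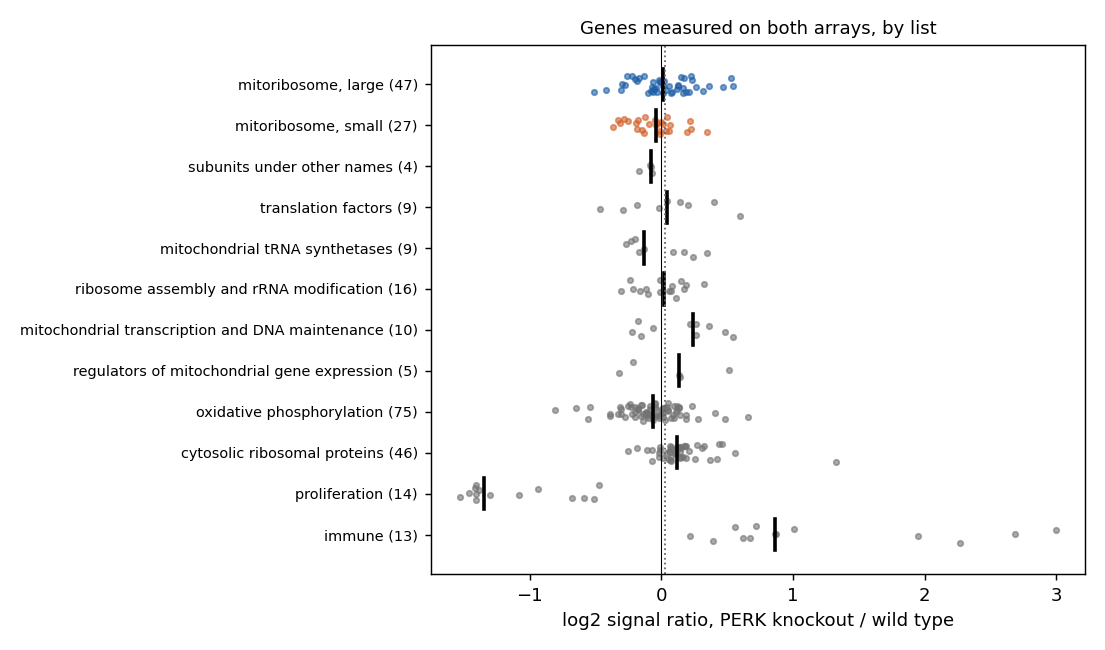
Log2 ratio of PERK knockout over wild type for measured genes, 1 point a gene, by list, with the number of genes in brackets. Black bars are list medians and the dotted line is the median of all measured genes, 0.03. Both mitoribosome subunits centre near equality, while the proliferation list centres at -1.34 and the immune list at 0.86.

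The nearest comparable sets were the cytosolic ribosome and the respiratory chain. The 46 measured cytosolic ribosomal protein genes had a median log2 ratio of 0.12 with 37 above equality (80.4% of them, where all measured genes gave 54.9%). They were taken by gene symbol, which let in the like-named Rpl22l1 (-0.26), Rpl7l1 (-0.18), Rps27l (-0.11) and Rps4l (-0.07). Rps27, at 2.51-fold higher, was the 1 past 1.5-fold, with dim signals for this list (111.9 and 280.4). The brightest of the list, Rpl41 (7852.5 and 7759.4) and Rps29 (5950.3 and 6451.0), had -0.02 and 0.12. The 75 measured nuclear genes of oxidative phosphorylation had a median of -0.06 with 29 above equality (38.7% of them, where all measured genes gave 54.9%). At 1.5-fold, 1 of the 75 was higher and 2 were lower, where 4.19% of all measured genes were higher and 2.95% lower. Uqcrb of complex III was 1.58-fold higher, Sdha of complex II 1.75-fold lower and Ndufb7 of complex I 1.57-fold lower, and no other gene measured there was 1.5-fold apart. Second probe sets gave smaller ratios for all 3: -0.13 for Uqcrb, opposite in sign, -0.28 for Sdha and -0.09 for Ndufb7. The brightest of this list, Cox7a2 and Atp5g3, had -0.14 and -0.18. Mitochondrial ribosomal protein genes, at -0.01, lay between them, and none of these differences between lists could be tested.

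Signals of proliferation and immune markers differed between the 2 libraries, as given here beside the member values. The 14 measured proliferation genes had a median of -1.34. All 14 were lower on the knockout array, against 45.1% of all measured genes, and 12 were at least 1.5-fold lower, against 2.95%. Summed with the 1 at the floor, their signal was 5895 (wild type) and 3065 (knockout). The 13 measured immune markers had a median of 0.86. All 13 were higher on the knockout array, against 54.9% of all measured genes, and 10 were at least 1.5-fold higher, against 4.19%. Over the 16 on the array, the summed signal was 1516.5 and 4140. The 9 acinar markers had a median of 0.07 and sums of 36690.0 and 38429, and the 8 islet endocrine markers 0.04 and sums of 39045 and 40609. Single markers of these lists also differed: the acinar gene Pla2g1b had 89.2 and 169.3, 1.90-fold higher, the hormone gene Ghrl 1461.3 and 2503.4, 1.71-fold higher, and the beta cell factor gene Pdx1 310.2 and 245.5, 1.26-fold lower. No marker of these lists was listed at 0. The part of these shifts in the mitochondrial ribosomal ratios was not tested.

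Many of these genes share a start region with a neighbour. In the RefSeq windows, 22 of 65 members (33.8%) had a protein-coding gene starting on the opposite strand within 1000 bases upstream, against 8.48% of 17491 protein-coding genes. Mrpl46 and Mrps11 face each other and had log2 ratios of -0.13 and -0.17. Some partners also serve mitochondria: Mrps12 faces the seryl-tRNA synthetase gene Sars2 (0.04 and 0.09), and Mrpl47 faces Ndufb5 of complex I (0.06 and 0.12). Signals of Sars2 were close to the floor (39.9 and 42.4). Of the 13 pairings whose partner was measured, with Mrpl46 and Mrps11 counted from either side, 8 had the same sign on both genes. The share of same signs in other gene pairs was not computed. Pairs of opposite sign included Mrpl14 and Tmem63b (0.47 and -0.26), Mrpl49 and Fau (-0.20 and 0.22) and Mrpl2 and Klc4 (-0.06 and 0.36). The 13 measured partners had a median of -0.11 and a range of -0.78 to 0.45. The lowest was Ncapd2, a condensin subunit used in mitosis, with 131.9 and 76.9, across from Mrpl51 at 666.0 and 660.1.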

How the data were processed

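The submitters deposited 1 linear signal intensity per probe set for each of 2 arrays, and GCOS 1.02 is the tool in the submitters' processing notes. How background was corrected, probes were summarised or detection was called is not stated in the labels. Over 22690 probe sets the deposited intensities shared a 2% trimmed mean (150.1), so they had been scaled before deposit, and the knockout array was set to the wild type's (factor 1.00). Signals below the pooled 40th percentile (39.8) were raised to it as a floor before taking log2 of knockout over wild type. Groups came from the sample titles. Probe sets with 1 gene symbol in the platform annotation (20380, without Affymetrix controls) were used, and all 74 members matched a RefSeq gene. Of 78 protein-coding genes with such names in RefSeq, 4 had no probe set of their own here.

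Precision is limited by the number of arrays. No p-value was computed. The steps were tested on simulated data drawn from the wild-type signals. Alternatives covered scaling, floor, probe set choice and subunit. The members, lists, sites, limits and motifs were chosen with earlier results of these data known, and further motifs had been counted before those given. Every member could be named, with both signals given for the 8 highest and 8 lowest ratios, the 6 brightest and those whose probe sets differed by over 0.5. In other lists the rule was the genes 1.5-fold apart and the 2 brightest. The marker lists depart from it, being given mostly by counts and sums, and further genes were named after their values were seen. Analyses used Python 3.11.15, numpy 2.4.6, pandas 2.3.3 and statsmodels 0.14.6.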

Additional observations from a re-analysis of the deposited data

How the results depend on the processing

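No paired analysis was possible because each genotype has 1 array. Under 10 alternatives the median log2 ratio of the members stayed between -0.05 and -0.01, that of the small subunit between -0.08 and -0.04, and that of the large subunit between -0.03 and 0.04, with its sign turning under median centring (-0.03), a floor at the 60th percentile (-0.00) and subunits by structure with 4 subunits under other names added (-0.00). Moving Mrps30 and Mrps18a alone left it at 0.01. The large minus small difference ranged from 0.04 to 0.08. Members past the 25% limit numbered 3 higher and 8 lower with median centring (13.2% and 13.4% of all genes), and 2 lower with the median over probe sets (9.57% of all genes). The other 67 of 70 summary values moved by at most 0.1 (log2) or, for counts, 1.5 times. No member was 1.5-fold apart under any of these alternatives. Of 661 single-gene values, 658 moved by less than the probe set SD. The other 3 were Mrpl34 (-0.13) and Mrps14 (-0.28) with the median over probe sets, and Mrpl15 (0.16) without _x_at and _s_at probe sets. The floor at the 60th percentile left 73 members and the last of these settings 70. For single genes, differences smaller than the probe set SD could not be resolved with 1 array per genotype. The error of a median over genes was not estimated.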

Other observations

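Probe sets shared with another gene entered no comparison above. The one shared by Mrpl30 and Gm6238 had 611.9 (wild type) and 761.9 (knockout), a log2 ratio of 0.32. The one shared by Mrpl53 and Ccdc142 had 444.5 and 356.2 (-0.32), and the one shared by Mrps34 and Nme3 had 196.4 and 199.6 (0.02), against -0.09 for the probe set of Mrps34 alone.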
